A study of Mus musculus with 17 samples.

Results

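The corticosteroid genes described here are the 2 receptors for corticosterone and aldosterone, Nr3c1 and Nr3c2, the enzyme Hsd11b1, which regenerates active glucocorticoid inside cells, and 6 genes known to be induced by these hormones in brain or other tissues, Fkbp5, Sgk1, Tsc22d3, Zbtb16, Cdkn1a and Plin4. The 9 genes were listed by symbol and matched to the Ensembl identifiers of the files through GENCODE M21, the mouse gene annotation on genome build GRCm38. They are 9 of 46073 genes in the files and 9 of the 19064 genes that entered the tests, so every one passed the filter on low values. Fkbp5, Sgk1 and Tsc22d3, the acute hormone-response genes, are kept apart from Nr3c2 throughout, because Nr3c2 is a gene whose level differs strongly between brain regions.

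The study sequenced polyadenylated RNA from the frontal cortex of male mice of the FVB/N strain that carried transgenes for the microRNA miR-211. The dTgDox group (3 libraries) had the dTg-211 genotype, which combines the CamK driver with the PTRE-miR-211 transgene, and received doxycycline for 4 days. The dTg group had the same dTg-211 genotype without doxycycline, and the Ct group had the CamK driver alone, also without doxycycline, with 6 libraries of each used here. A CamK driver acts in excitatory neurons of the forebrain, and in a Tet-off pair doxycycline stops the driver's protein from switching on the PTRE transgene. No group had the driver alone with doxycycline, so doxycycline itself and the loss of transgene activity cannot be told apart. The mice's age was not given in the labels, and the labels do not say that the libraries of a group came from separate mice. The p-values therefore measure the spread between libraries, which may be technical in part.

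Some libraries stood apart before any comparison was made. The library labelled dTg replicate 1 had a summed level of 2922 FPKM for 10 cerebellar marker genes, against at most 133 FPKM in the other dTg libraries and at most 105 FPKM in Ct. It was left out, and the file of the single mouse with PTRE-miR-211 but no CamK driver held the same values as that library for all 46073 genes, so that genotype was not compared. Of the 12 libraries without doxycycline, 5 (dTg replicates 3 and 6 and Ct replicates 1, 2 and 5) had mean log2 levels of olfactory bulb genes of 1.51 to 4.30, against -0.23 to 0.55 in the other 7. The header lines of dTg replicates 5, 6 and 7 share a number whose meaning is not stated. Between 15762 and 16085 genes per library had at least 1 FPKM. Levels were read as FPKM from the values themselves, because the headers give no unit. FPKM is a fragment count divided by transcript length and by the mapped total. On that reading, levels of different genes can be compared per unit of length. Read counts were not used here, and no counting interval is given.

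Glucocorticoids and mineralocorticoids act through closely related nuclear receptors. In the brain the mineralocorticoid receptor, encoded by Nr3c2, binds corticosterone with high affinity and is abundant in hippocampal neurons, whereas the glucocorticoid receptor, encoded by Nr3c1, is widespread and is occupied mainly when the hormone is high. Both bind as dimers to a palindromic glucocorticoid response element and share many target genes, among them Fkbp5, whose product lowers the receptor's hormone affinity in a short feedback loop.

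The sequence of a hormone-response promoter is shown for Sgk1, because the full response element was found in it and in no other member promoter. RefSeq promoters (250 bases before to 50 after a start, GRCm38.p6) matched 7 of the 9 members with 15 windows. The palindrome searched was GNACANNNTGTNC, which reads the same on both strands. It occurred in 1 of the 15 windows, and in 0.475% of all 32851 promoter windows. Several of the 15 windows belong to alternative starts of Sgk1, and the other Sgk1 windows held no palindrome. A single arm of the element, TGTTCT or AGAACA, occurred in 4 of the 15 windows, against 19% of all windows. The window with the palindrome held 3 such arms, of which the one nearest its 5′ end lies apart from the palindrome and the others overlap it. This Sgk1 window lies at chr10:21993640-21993939 on the plus strand, with the match, 188 bases before the start, in capitals.

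Sgk1 promoter: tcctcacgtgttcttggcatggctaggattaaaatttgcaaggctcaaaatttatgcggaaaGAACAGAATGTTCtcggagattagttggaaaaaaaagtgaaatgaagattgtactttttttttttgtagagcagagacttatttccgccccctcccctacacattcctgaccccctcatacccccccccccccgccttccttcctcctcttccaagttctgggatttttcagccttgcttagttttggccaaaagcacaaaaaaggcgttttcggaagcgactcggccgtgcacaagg

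The transgene's product and the matching site in Nr3c2 are shown because miR-211 is what the genotypes differ in. Capitals mark the seed of mouse miR-211-5p (bases 2 to 8; chr7:64205831-64205852, plus strand, RefSeq GRCm38.p6) and the 8-base match AAAGGGAA in the longest annotated 3′ untranslated region of Nr3c2, 925 bases after the stop codon.

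mmu-miR-211-5p: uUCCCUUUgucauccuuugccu
Nr3c2 site: agtgtatttaagAAAGGGAAagctg

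An 8-base match occurred in the 3′ untranslated regions of 6.3% of 20813 genes. Nr3c2 held 1 and Nr3c1 held 2 in a longer region, and the other 7 members held 0. Such a match is a description of the letters and was not tested as a site.

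**Figure D1:**
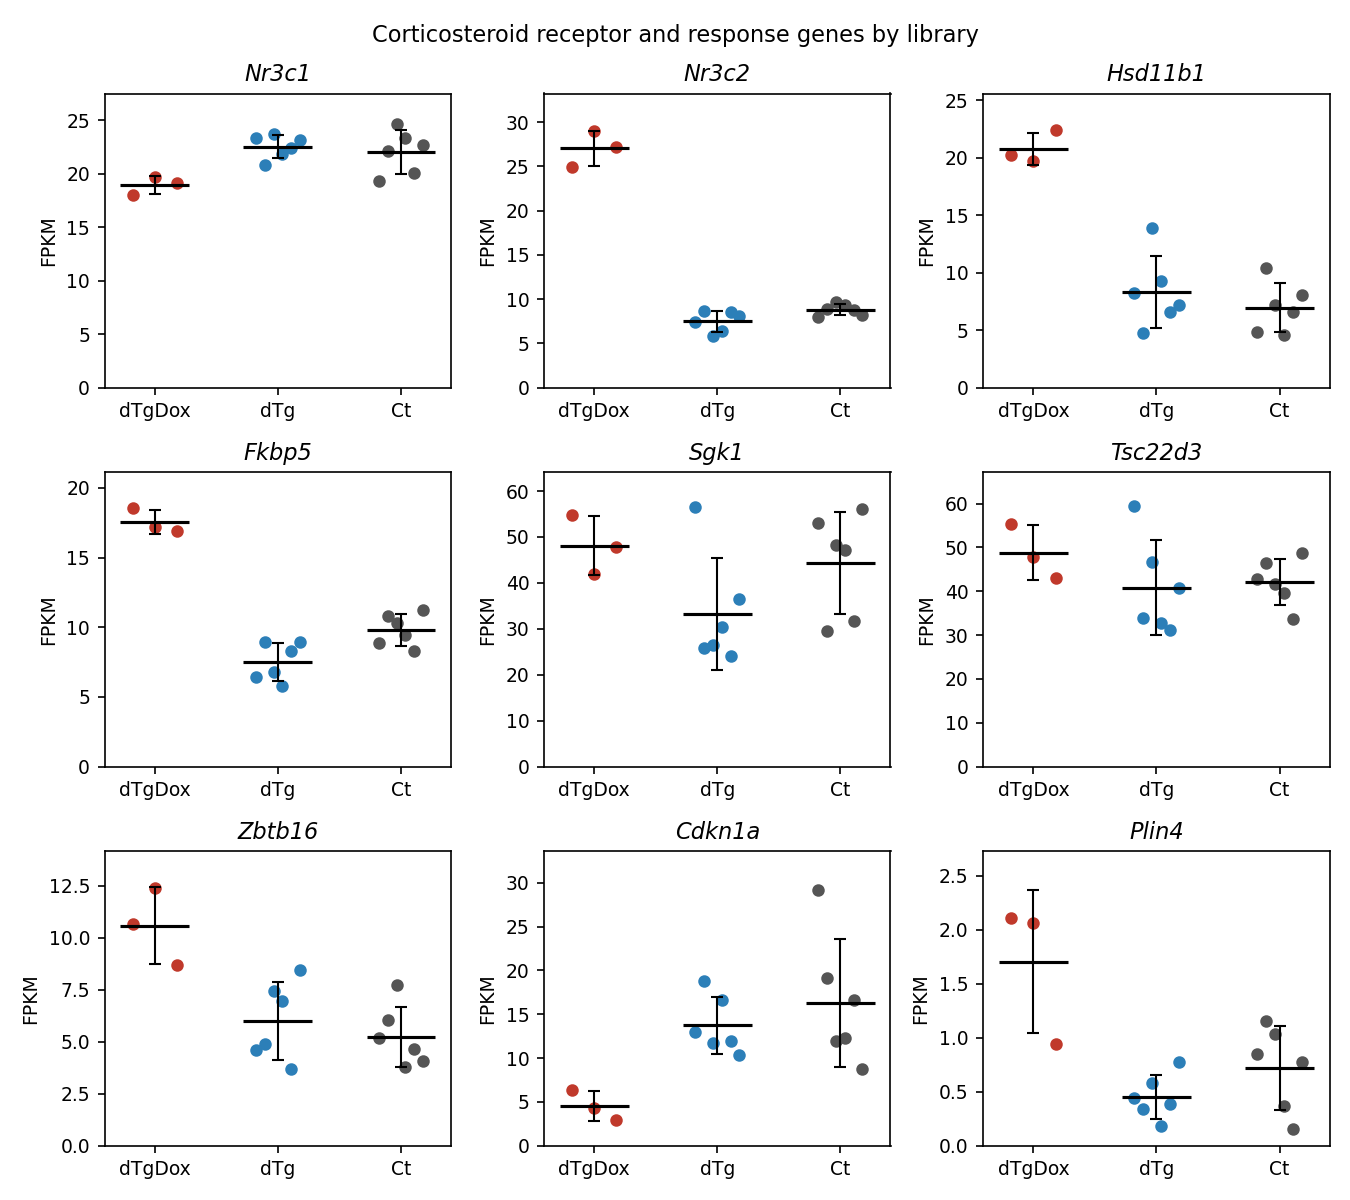
FPKM of the 9 genes (y axes, linear, from 0) in dTgDox (n = 3), dTg (n = 6) and Ct (n = 6); points are libraries, long bars are means and error bars are the SD. The 3 dTgDox libraries sit above all others for Nr3c2, Hsd11b1, Fkbp5 and Zbtb16 and below all others for Cdkn1a, while they overlap both groups for Sgk1 and Tsc22d3.

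By their labels, dTgDox and dTg share the double transgenic genotype and differ in 4 days of doxycycline. These groups also differed in the level of genes of the hippocampal formation, with no library between. Doxycycline and that tissue difference cannot be told apart here. Of the 9 members, 5 rose (Nr3c2, Hsd11b1, Fkbp5, Zbtb16 and Plin4), 2 fell (Cdkn1a and Nr3c1) and 2 did not pass (Sgk1 and Tsc22d3). Across all genes tested, 18.9% passed in either direction, 9.65% higher and 9.22% lower, by limma with Benjamini-Hochberg adjustment at 0.05. The median log2 difference was 0.80 over the members and -0.01 over all genes. The members were chosen with earlier results of these data known, so these values describe the list and do not test it. Against Ct, 5 members rose and 1 fell, beside 9.86% of all genes higher and 9.85% lower. The comparisons with dTg and with Ct share the dTgDox libraries, so they are not independent of each other.

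Nr3c2 (chromosome 8, 76899442 to 77245012), the mineralocorticoid receptor, had the smallest p of the 9. Its level was 24.9, 29.0 and 27.1 FPKM in the dTgDox libraries. In dTg it ranged from 5.79 to 8.70 FPKM with a median of 7.79, and in Ct from 8.04 to 9.62 FPKM with a median of 8.86. The groups were far apart, with the lowest dTgDox library well above the highest of the others. Mean levels were 27.0 ± 2.02 FPKM in dTgDox (SD, n = 3), 7.51 ± 1.20 in dTg (SD, n = 6) and 8.82 ± 0.60 in Ct (SD, n = 6). The fitted log2 difference was 1.79 (SE 0.11, limma adjusted p 1.7e-07) against dTg and 1.56 (SE 0.11, adjusted p 4.5e-07) against Ct.

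Genes of the hippocampal formation were higher beside Nr3c2. Of 19 tested markers of that region, 17 were higher in dTgDox than in dTg and 0 were lower, with a median log2 difference of 2.22. These markers were chosen with earlier results of these data known, so the count describes them and does not test them. Their summed level was 379 to 433 FPKM in dTgDox, 96.1 to 123 FPKM in dTg and 117 to 130 FPKM in Ct, and no marker was at 0 in every library of any group. Spink8, a marker of CA1 pyramidal cells, averaged 47.1 ± 11.5 FPKM in dTgDox and 2.89 ± 2.06 FPKM in dTg (SD, n = 3 and 6). Prox1, a transcription factor of dentate granule cells, averaged 10.4 ± 0.84 FPKM in dTgDox and 1.83 ± 0.24 FPKM in dTg. The part of this tissue difference in the results on each member was not tested. In bulk tissue, a different share of cells of a type and a different amount of RNA per cell cannot be told apart.

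**Figure D2:**
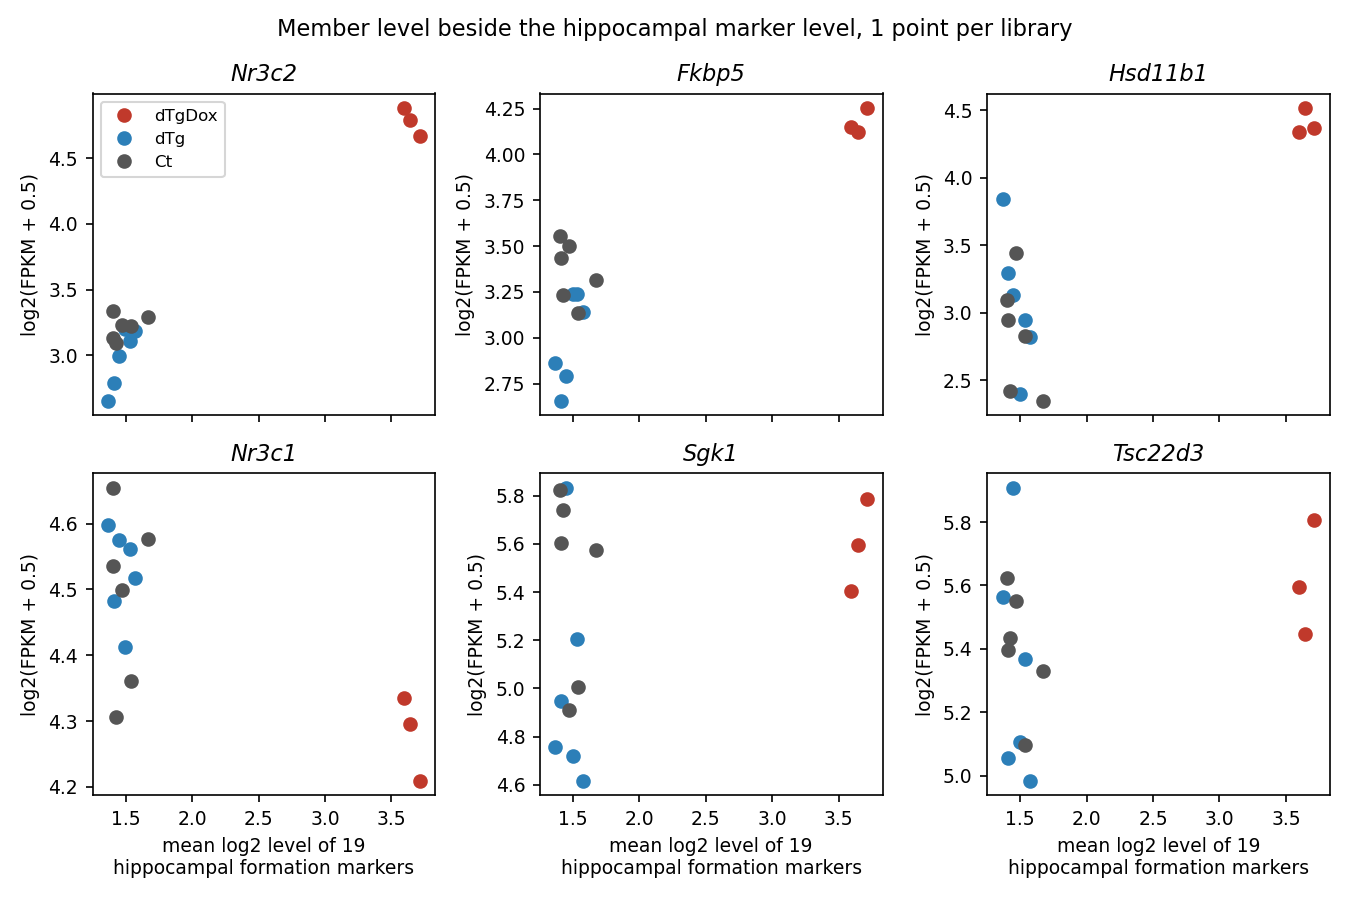
log2(FPKM + 0.5) of 6 members (y axes) against the mean log2 level of 19 hippocampal formation markers (x axes), 1 point per library, for dTgDox, dTg and Ct. The dTgDox libraries stand apart on the x axis, at 3.60 to 3.71, from dTg at 1.37 to 1.57 and Ct at 1.40 to 1.67, with no library between.

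Nr3c1 (chromosome 18, 39410545 to 39519421), the glucocorticoid receptor, was slightly lower in dTgDox than in dTg. The dTgDox libraries had 18, 19.7 and 19.1 FPKM. In dTg the level ran from 20.8 to 23.7 FPKM with a median of 22.8, and in Ct from 19.3 to 24.7 FPKM with a median of 22.4. All dTgDox libraries lay below all dTg libraries but overlapped Ct. On the log2 scale the difference was -0.24 (SE 0.07, limma adjusted p 0.032) against dTg and -0.21 (SE 0.07, adjusted p 0.060) against Ct. The call against dTg was lost without dTg replicate 2, 4 or 7 or any 1 dTgDox library (adjusted p 0.052 to 0.144). It was also lost with dTg replicate 1 included (0.051), without dTg replicate 7 and Ct replicate 2 together (0.067), or with dTg replicates 5 to 7 averaged as 1 library (0.068). Against Ct a call was gained without Ct replicate 1 (0.024) or Ct replicate 5 (0.042), with equal totals (0.032), with array quality weights (0.021) and without the 5 libraries rich in olfactory bulb genes (0.015).

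The order of the receptors differed between dTgDox and the other groups. The ratio of Nr3c2 to Nr3c1 levels was 1.39, 1.47 and 1.42 in the dTgDox libraries. It ran from 0.244 to 0.418 in dTg and from 0.364 to 0.440 in Ct. Nr3c2 exceeded Nr3c1 in all 3 dTgDox libraries and in none of the 12 others. The geometric mean ratio was 1.43 in dTgDox, 0.330 in dTg and 0.401 in Ct. An exact two-sided permutation test gave p = 0.0238 for dTgDox against dTg and again against Ct, the smallest value that 3 against 6 libraries allow. Adjusted over 12 ratio tests chosen after the values were seen, it was 0.0476. For dTg against Ct the ratio differed by -0.28 on the log2 scale (exact permutation p = 0.0411, adjusted 0.0705).

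Hsd11b1 (chromosome 1, 193221634 to 193264075) encodes 11-beta-hydroxysteroid dehydrogenase type 1, which turns inert 11-keto steroid back into corticosterone. Its level was 20.2, 19.7 and 22.4 FPKM in the dTgDox libraries, 4.78 to 13.8 FPKM in dTg (median 7.74) and 4.59 to 10.4 FPKM in Ct (median 6.92). Every dTgDox library was above every other library used. The fit gave a log2 difference of 1.34 (SE 0.27, limma adjusted p 0.0034) against dTg and 1.56 (SE 0.27, adjusted p 0.0011) against Ct. The left-out dTg replicate 1 had 48.9 FPKM, and with that library in the fit neither call held (adjusted p 0.265 against dTg and 0.078 against Ct). Hsd11b2, the enzyme that inactivates corticosterone and protects Nr3c2 in kidney, did not pass the filter and averaged 0.0060 FPKM in dTgDox, 0.034 in dTg and 0.027 in Ct.

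The 3 hormone-response genes differed in their calls. Fkbp5 rose, and Sgk1 and Tsc22d3 did not pass in either comparison that involves doxycycline. All 3 fitted differences were positive in each comparison, and a difference in calls does not itself show that the genes differ from each other.

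Fkbp5 (chromosome 17, 28399094 to 28517527) encodes an immunophilin that sits in the receptor's chaperone complex and is a sensitive readout of receptor activity. The dTgDox libraries had 18.6, 17.2 and 16.9 FPKM. Levels in dTg were 5.81 to 8.96 FPKM (median 7.55) and in Ct 8.29 to 11.2 FPKM (median 9.89). The dTgDox values were tightly grouped and above all others. Fkbp5 differed on the log2 scale by 1.19 (SE 0.13, limma adjusted p 2.6e-05) against dTg and 0.81 (SE 0.13, adjusted p 0.00060) against Ct. Both calls held under every alternative tried, with log2 differences of 1.12 to 1.32 against dTg.

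Sgk1 (chromosome 10, 21882184 to 21999903) encodes a kinase induced by both receptors that raises the activity of epithelial sodium channels. It had 54.8, 41.9 and 47.8 FPKM in the dTgDox libraries, 24.0 to 56.4 FPKM in dTg (median 28.5) and 29.6 to 56.1 FPKM in Ct (median 47.7). The groups overlapped, because dTg replicate 2 was higher than every dTgDox library and the dTgDox values lay inside the range of Ct. The log2 difference was 0.58 (SE 0.26, limma adjusted p 0.137) against dTg and 0.15 (SE 0.26, adjusted p 0.738) against Ct. Without dTg replicate 2 the difference from dTg was 0.75 and passed (adjusted p 0.024). It also passed (0.018) with only dTg replicates 3 to 7 and Ct replicates 4 to 6, whose header numbers form a series, beside dTgDox. That setting also lacks dTg replicate 2, and the dTgDox header numbers lie outside the series.

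Tsc22d3 (chromosome X, 140539528 to 140600659) encodes GILZ, a leucine-zipper protein that mediates anti-inflammatory effects of glucocorticoids. Its level was 55.5, 47.8 and 43.1 FPKM in the dTgDox libraries, 31.1 to 59.5 FPKM in dTg (median 37.4) and 33.7 to 48.8 FPKM in Ct (median 42.2). All groups overlapped. Its log2 difference was 0.29 (SE 0.18, limma adjusted p 0.285) against dTg and 0.21 (SE 0.18, adjusted p 0.444) against Ct, and no alternative gave a call.

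Within a library, Fkbp5 was higher relative to Tsc22d3 in dTgDox. The ratio of their levels was 0.335, 0.360 and 0.393 in the dTgDox libraries, with geometric means of 0.362 in dTgDox, 0.187 in dTg and 0.234 in Ct. The dTgDox libraries did not overlap either group, so the exact permutation p was at its smallest possible value, 0.0238, against each (adjusted 0.0476 over the 12 ratio tests). The ratios in this paragraph were also chosen after the values were seen, so these p-values add little to the separation itself. For Fkbp5 relative to Sgk1 the geometric means were 0.367 in dTgDox, 0.234 in dTg and 0.228 in Ct, and the exact permutation p was 0.0714 against each (adjusted 0.0952). Nr3c2 rose more than Fkbp5. The ratio of Nr3c2 to Fkbp5 had a geometric mean of 1.54 in dTgDox, 1.0 in dTg and 0.90 in Ct, with an exact permutation p of 0.0238 against each (adjusted 0.0476).

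Zbtb16 (chromosome 9, 48654297 to 48836222) encodes PLZF, a zinc-finger repressor strongly induced by glucocorticoids in several human tissues. It had 10.7, 12.4 and 8.69 FPKM in the dTgDox libraries, 3.69 to 8.46 FPKM in dTg (median 5.94) and 3.81 to 7.72 FPKM in Ct (median 4.92). The lowest dTgDox library was only just above the highest dTg library. The fitted difference was 0.80 (SE 0.24, limma adjusted p 0.030) against dTg and 0.97 (SE 0.24, adjusted p 0.011) against Ct. The call against dTg was lost without dTg replicate 2 (adjusted p 0.054), dTg replicate 3 (0.052), dTgDox replicate 1 (0.096) or dTgDox replicate 2 (0.121), and that against Ct without dTgDox replicate 2 (0.057).

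Plin4 (chromosome 17, 56100591 to 56109803) encodes a perilipin that coats nascent lipid droplets, and it was the lowest-expressed member. Its level was 2.11, 2.06 and 0.94 FPKM in the dTgDox libraries, 0.18 to 0.78 FPKM in dTg (median 0.42) and 0.16 to 1.16 FPKM in Ct (median 0.81). dTgDox replicate 3 lay close to the other groups and inside the range of Ct. On the log2(FPKM + 0.5) scale, which understates changes of low genes, the difference was 1.19 (SE 0.29, limma adjusted p 0.010) against dTg and 0.87 (SE 0.29, adjusted p 0.047) against Ct. The call against dTg was lost without dTgDox replicate 1 (0.065) or dTgDox replicate 2 (0.054) and with dTg replicate 1 included (0.052). That against Ct passed in 11 of 30 alternatives, and leaving out 1 library gave adjusted p-values of 0.028 to 0.190. The libraries without which it was lost were dTgDox replicates 1 and 2, dTg replicates 2, 3, 4 and 6 and Ct replicates 1, 4, 5 and 6.

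Cdkn1a (chromosome 17, 29090976 to 29100727) encodes the cyclin-dependent kinase inhibitor p21, which is induced by p53 and, in many cells, by glucocorticoids. Its level was 6.39, 4.27 and 2.96 FPKM in the dTgDox libraries, 10.3 to 18.8 FPKM in dTg (median 12.5) and 8.74 to 29.2 FPKM in Ct (median 14.4). It had the largest decrease of the 9 members, with every dTgDox library below every other library used. Its fitted difference was -1.53 (SE 0.32, limma adjusted p 0.0043) against dTg and -1.69 (SE 0.32, adjusted p 0.0021) against Ct. Both calls held under every alternative tried.

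Between groups, 4 members (Nr3c2, Hsd11b1, Fkbp5 and Zbtb16) had all dTgDox libraries above all dTg and Ct libraries, beside 8.06% of all genes tested. Cdkn1a alone had them all below, also beside 8.06%. Against dTg alone, 5 members lay wholly above (11.3% of all genes) and 2 wholly below (10.9%). Against Ct alone, 4 lay wholly above (11.5%) and 1 wholly below (11.8%).

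**Figure D3:**
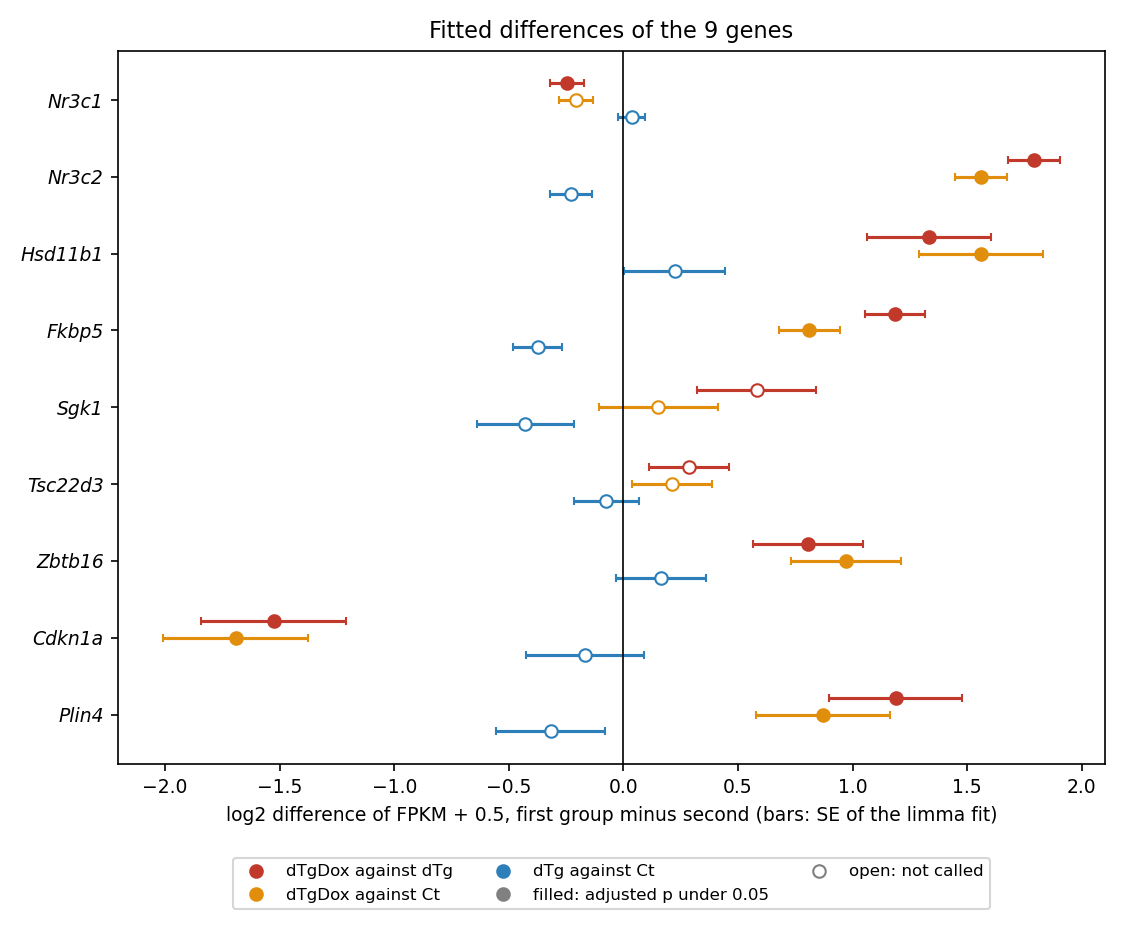
Fitted log2 differences (x axis, first group minus second, FPKM + 0.5) of the 9 genes (rows) for dTgDox against dTg, dTgDox against Ct and dTg against Ct; bars are the SE of the limma fit, and filled points have an adjusted p under 0.05. Nr3c2 lies farthest right at 1.79 and Cdkn1a farthest left at -1.69, and all 9 points of dTg against Ct are open.

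The miR-211 transgene, on top of the driver, is what separates dTg from Ct. None of the 9 members passed, and 0 of 19064 genes did (0%) by limma, with an adjusted p of 0.9999 for each member. At an unadjusted p under 0.05 there were 607 genes, 3.18% of those tested. Nr3c2 averaged 7.51 ± 1.20 FPKM in dTg and 8.82 ± 0.60 FPKM in Ct (SD, n = 6 each), with a log2 difference of -0.23 (SE 0.09). Fkbp5 averaged 7.53 ± 1.37 FPKM in dTg and 9.84 ± 1.15 FPKM in Ct, with a difference of -0.37 (SE 0.11), and the groups overlapped. By unadjusted p, Fkbp5 ranked 42 of 19064 genes. Sgk1 differed by -0.43 (SE 0.21), and the other 6 members by -0.32 to 0.22.

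Levels also ordered the members. In Ct, Sgk1 (44.3 ± 11.1 FPKM) and Tsc22d3 (42.2 ± 5.28 FPKM) were highest and did not differ beyond their spread. Nr3c1 followed (22.03 ± 2.03 FPKM), then Cdkn1a (16.3 ± 7.31 FPKM), whose range overlapped those of its neighbours. Fkbp5 (9.84 ± 1.15 FPKM) and Nr3c2 (8.82 ± 0.60 FPKM) came next with overlapping ranges, then Hsd11b1 (6.95 ± 2.15 FPKM) and Zbtb16 (5.24 ± 1.45 FPKM), also overlapping, and Plin4 (0.72 ± 0.39 FPKM) was last (SD, n = 6 each). In dTgDox, Nr3c2 came next after Tsc22d3 and Sgk1, above Hsd11b1, Nr3c1 and Fkbp5.

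Other genes of the pathway were described from lists chosen with earlier results of these data known. Of 44 other glucocorticoid-induced genes tested, 8 rose and 3 fell in dTgDox against dTg, with a median log2 difference of 0.15, and 9 rose and 5 fell against Ct, with a median of 0.08. Cebpd, a transcription factor of the acute-phase response, averaged 9.71 ± 1.046 FPKM in dTgDox, 2.89 ± 0.65 in dTg and 3.37 ± 0.98 in Ct (log2 difference 1.61 against dTg, limma adjusted p 7.2e-05). The metallothioneins Mt1 and Mt2, which bind metals, rose by 0.57 and 0.60. Also higher were Cebpb (0.73), the repressor Bcl6 (0.67), the endocytic protein Ehd3 (0.60), the small GTPase Rhob (0.56) and the astrocyte protein Ndrg2 (0.43). Dusp1, a phosphatase that is both glucocorticoid-induced and activity-induced, fell by 1.89, and Arl4d and Usp2 fell by 1.19 and 0.53.

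Among genes of the stress axis, 10 tested of 18 listed, 1 rose and 3 fell in dTgDox against dTg (median -0.21) and 2 rose and 3 fell against Ct (median -0.24). Crh, the hypothalamic releasing hormone that cortical interneurons also make, averaged 2.004 ± 0.72 FPKM in dTgDox, 4.32 ± 0.76 in dTg and 4.91 ± 1.95 in Ct. Its receptor Crhr1 averaged 4.99 ± 0.70 FPKM in dTgDox, 11.6 ± 1.63 in dTg and 11.8 ± 2.68 in Ct. The log2 differences from dTg were -0.98 for Crh (limma adjusted p 0.017) and -1.14 for Crhr1 (0.00031). The neuropeptide gene Adcyap1 fell by 1.25, and Crhr2, the receptor for urocortins, rose by 0.82. Of 12 cortical excitatory neuron markers, 4 fell, 1 rose (Neurod6, by 1.05) and 7 did not pass, with a median of -0.71, and their part in these values was not tested.

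Steroid-handling genes moved in both directions. Of 10 tested of 14 listed, 2 rose and 2 fell in dTgDox against dTg (median 0.10). Cyp7b1, a hydroxylase of neurosteroids that is abundant in the hippocampus, averaged 10.4 ± 0.40 FPKM in dTgDox, 5.36 ± 0.29 in dTg and 5.03 ± 0.57 in Ct (log2 difference 0.90 against dTg, limma adjusted p 5.4e-06). Srd5a1, the 5-alpha-reductase, rose by 0.69. Cyp11a1, the side-chain cleavage enzyme, fell by 0.97. H6pd, which supplies the cofactor that lets Hsd11b1 act as a reductase, fell by 0.35 (adjusted p 0.046) while Hsd11b1 rose.

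Genes of the receptors' machinery were counted beside the 18.9% of all genes tested that passed in dTgDox against dTg (9.65% higher and 9.22% lower). Of 24 tested chaperones and coregulators, 2 rose and 1 fell in dTgDox against dTg (median -0.02). The coactivators Ncoa1 and Ncoa2 differed by 0.27 and -0.35, and the co-chaperone Ptges3 by 0.19. Of 10 tested genes of aldosterone-regulated sodium transport, 1 rose and 2 fell (median 0.04). Atp1b1, a subunit of the sodium pump, rose by 0.30. Scnn1a, the channel subunit downstream of Sgk1 in kidney, averaged 1.58 ± 0.35 FPKM in dTgDox and 0.85 ± 0.54 FPKM in dTg (limma adjusted p 0.056).

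Genes that share other regulators with Cdkn1a and Plin4 were counted for comparison. Of 15 tested p53 targets, 0 rose and 3 fell in dTgDox against dTg (Zmat3 by 0.43, Pmaip1 by 0.71 and Phlda3 by 0.35), with a median of 0.07. None of 5 other tested cyclin-dependent kinase inhibitors passed. Cdkn1b, a relative of Cdkn1a, averaged 16.3 ± 0.65 FPKM in dTgDox and 15.8 ± 2.13 FPKM in dTg. Of 17 other tested lipid droplet and PPAR genes, 4 rose and 1 fell (median 0.06). Plin3, another perilipin, rose by 0.93, Cidea, a lipid droplet fusion protein, by 1.39, and Acot1 and Acot2, acyl-CoA thioesterases, by 0.66 and 0.49, while Pparg fell by 1.11.

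Most immediate-early genes, which respond to neuronal activity, fell beside these changes. Of 11 tested, 0 rose and 7 fell in dTgDox against dTg (median -1.89). Their summed level was 102 to 128 FPKM in dTgDox, 152 to 1029 FPKM in dTg and 275 to 530 FPKM in Ct, and none was at 0 in every library of any group. Egr1 averaged 24.4 FPKM in dTgDox, 123 FPKM in dTg and 111 FPKM in Ct. Of 18 clock genes, 0 rose, 6 fell, among them Cry2 (-0.42) and Hlf (-0.52), and 12 did not pass, with a median of -0.32. Per1, a clock gene that glucocorticoids also induce, averaged 13.6 FPKM in dTgDox and 25.5 FPKM in dTg (limma adjusted p 0.056). The part of either list in the members' values was not tested.

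Markers of glia gave a mixed picture. Markers of oligodendrocytes, cells in which corticosterone is known to induce Sgk1, had a summed level of 2861 to 4296 FPKM in dTgDox, 1028 to 2803 FPKM in dTg and 1138 to 2469 FPKM in Ct. Of 12 tested, 1 rose against dTg and 0 fell (median 0.71). Of 10 astrocyte markers 3 rose and 1 fell (median 0.22), led by Gfap at 202 ± 74.5 FPKM in dTgDox and 33.6 ± 9.03 FPKM in dTg. Their summed level was 1382 to 1648 FPKM in dTgDox, 1128 to 1515 FPKM in dTg and 1097 to 1319 FPKM in Ct. Of 10 microglial markers 3 rose and 0 fell (median 0.08), and none of the 12 endothelial markers passed. Choroid plexus genes ran from 27.2 to 1989 FPKM in dTgDox, where replicate 3 was the highest, and from 2.20 to 130 FPKM in dTg. In both lists of glia, no marker was at 0 in every library of any group, and their part in the members' values was not tested.

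**Figure D4:**
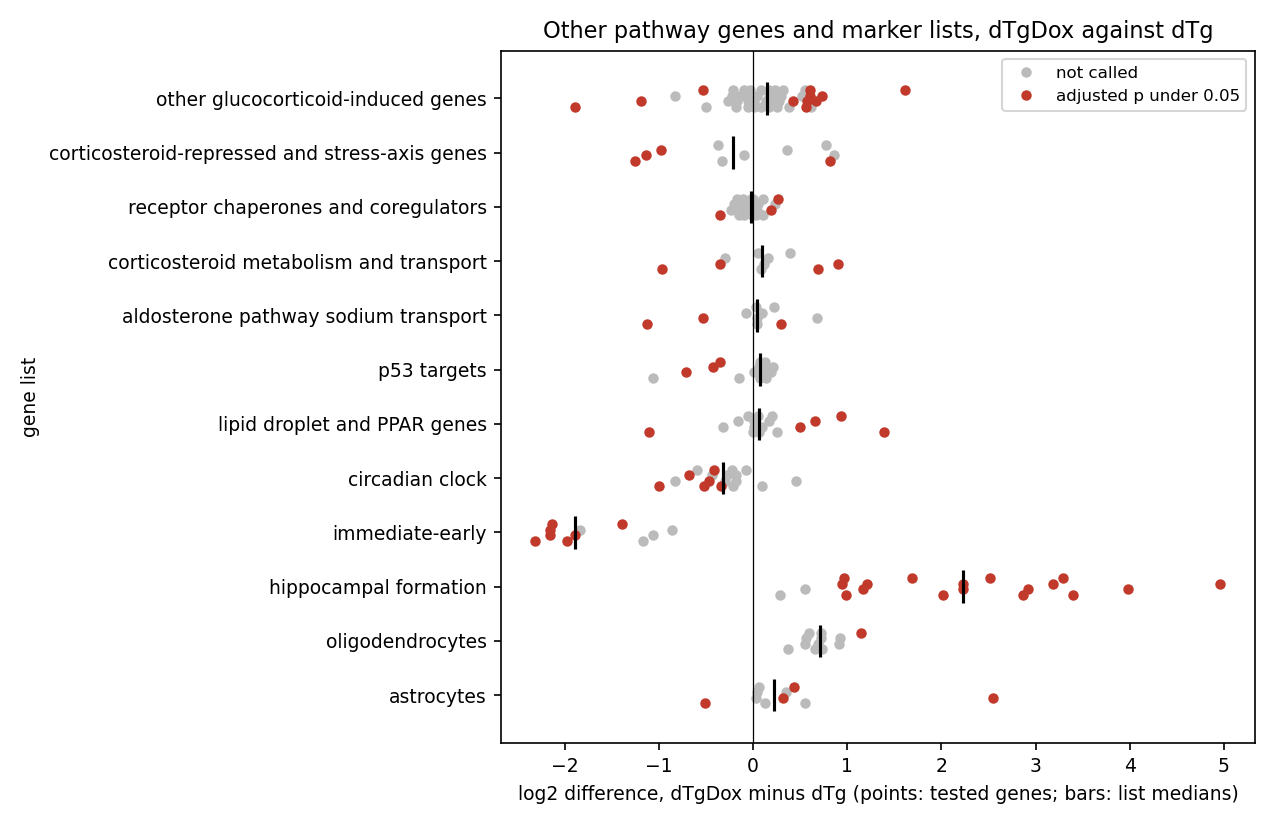
Log2 differences, dTgDox minus dTg (x axis), of the tested genes of 12 lists (rows); red points have an adjusted p under 0.05 and vertical bars are list medians. The hippocampal list has a median of 2.22 and the immediate-early list one of -1.89, while the lists of other glucocorticoid-induced genes and of receptor chaperones lie near 0, at 0.15 and -0.02.

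Variation between libraries of a group was compared between members. Over the 12 libraries of dTg and Ct, with group means removed, 36 pairs of members were correlated, and none had an adjusted p under 0.05. Sgk1 and Tsc22d3 had Pearson's r = 0.652 and Spearman's rho = 0.538 (permutation p = 0.0321 and 0.0766, adjusted 0.375 and 0.489), and r was 0.214 without dTg replicate 2 and Ct replicate 6, so it rested on those libraries. It was 0.832 without dTg replicate 7 and Ct replicate 2, 0.798 within dTg and 0.382 within Ct. Fkbp5 had r = -0.143 with Sgk1 (-0.338 within dTg and 0.204 within Ct). With Tsc22d3 it had r = -0.034, made up of -0.339 within dTg and 0.877 within Ct (n = 6 each), so the pooled value describes neither group. Nr3c2 and Fkbp5 had r = 0.632 and rho = 0.685 (permutation p = 0.0773 and 0.0463, adjusted 0.464 and 0.489), and r was 0.423 without dTg replicates 4 and 5. Nr3c1 and Cdkn1a had r = -0.782 and rho = -0.734 (permutation p = 0.0112 and 0.0207, adjusted 0.375 and 0.489), and r was -0.612 without Ct replicates 1 and 5. Over the same 12 libraries, r with the olfactory bulb level was -0.898 for Nr3c1 and 0.825 for Cdkn1a (adjusted permutation p 0.0315 and 0.118). The libraries fall into 2 sets on that level, and its part in this pair was not tested.

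Nr3c1 was lower, with some overlap, in the libraries with a higher olfactory bulb level. It ranged from 19.3 to 22.4 FPKM (median 20.8) in the 5 libraries with the higher olfactory bulb level, and from 21.8 to 24.7 FPKM (median 23.3) in the other 7 of dTg and Ct. Because the libraries fall into 2 sets on that level, r was taken within the 7, where it was -0.525 (permutation p = 0.305), and the 5 were too few. Of 126 relations of members with 14 lists, this was the only one with an adjusted p under 0.05 when all 12 libraries were pooled. Zbtb16 with striatal neuron markers came next (r = -0.863, rho = -0.839, permutation p = 0.00156 and 0.00063, adjusted 0.0983 and 0.0689), and r was -0.882 without dTg replicate 7 and Ct replicate 3. Nr3c2 with hippocampal markers had r = 0.631 and rho = 0.664 (permutation p = 0.0154 and 0.0253, adjusted 0.243 and 0.399), and r was 0.449 without dTg replicates 4 and 5.

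**Figure D5:**
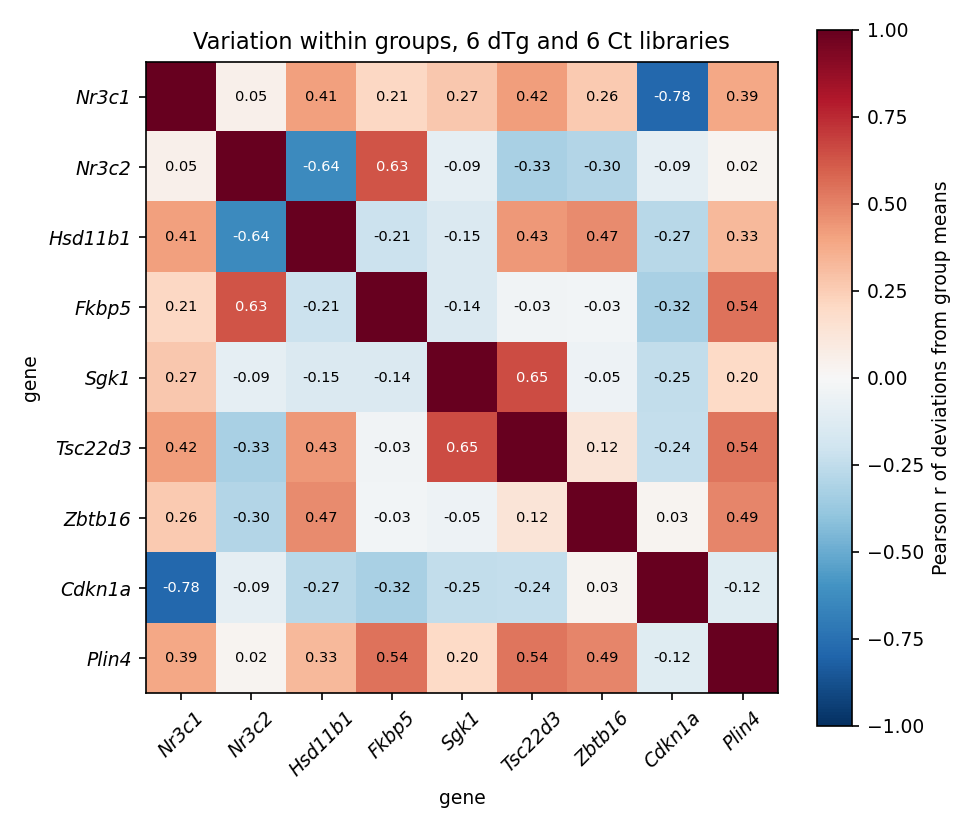
Pearson's r between members (rows and columns) over 6 dTg and 6 Ct libraries after group means were removed; red is positive and blue negative. Nr3c1 with Cdkn1a is lowest at -0.782 and Sgk1 with Tsc22d3 highest at 0.652, and no pair passed adjustment over 36 pairs.

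The genes whose deviations from group means were most like those of each member are given as a description over 15 libraries and 12878 genes, which share depth and dissection. For Nr3c2 they were Eif4b (r = 0.827), Slc25a11 (0.813), Dnajc14 (0.799), M6pr (0.793) and Drd5 (0.787). Fkbp5 was most like Mir8112 (0.864), Gmppb (0.805), Tsr2 (0.801), Ccdc115 (0.774) and Mtln (0.768). Sgk1 was most like Fastkd5 (0.882), Plekhf1 (0.825), Rc3h2 (0.822), Bmt2 (0.815) and Nfkbia (0.811), the inhibitor of NF-kB. Tsc22d3 was most like Cables1 (0.880), Dda1 (0.879), Akr7a5 (0.866), Dnajb1 (0.856) and Rida (0.844). No gene appeared in more than 1 of these 4 sets of 5.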

How the data were processed

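PolyA RNA from frontal cortex was sequenced from 1 end. The submitters' processing notes list TopHat2 and DESeq, without versions. The build, the annotation and the quantifier were not given in the sources used here. The authors deposited 1 value per Ensembl gene, read here as FPKM from the values themselves, with no unit in the file headers. Depth in reads is therefore unknown, and no counting interval was computed.

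Genes reaching 0.5 FPKM in 3 or more of 15 libraries were fitted on log2(FPKM + 0.5) with limma 3.58.1 in R 4.3.3 (1 mean per group, trend, robust), two-sided, with Benjamini-Hochberg adjustment over 19064 genes. The added 0.5 pulls changes of low genes toward 0. All 9 members passed the filter, so the permutation test planned for members below it had nothing to test. Correlations used 100000 within-group permutations, and ratios of members used exact permutation tests (Python 3.11.15, SciPy 1.17.1). The fit and the correlations were tested on simulated data. Alternatives were the libraries used, pseudocount, filter, scaling, variance model, a replicate block and leaving out each library. Members and lists were chosen with earlier results of these data known. Of each pathway list, the 4 genes with the smallest p in dTgDox against dTg, plus those past the threshold up to 8, could be named. Genes outside that rule (Arl4d, Per1, Spink8, Prox1, Gfap, Neurod6 and Hsd11b2) were chosen after their values were seen.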

Additional observations from a re-analysis of the deposited data

Results flagged for a closer look

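The library labelled dTg replicate 1 was not used in the comparisons, and 4 members were above every Ct library there. It had a summed level of 2922 FPKM for cerebellar marker genes, and its values equalled those labelled as lacking the CamK driver. Its tissue and genotype are therefore uncertain, and its values cannot be read as a dTg effect in cortex. Nr3c1 was at 26.5 FPKM, Tsc22d3 at 69.9 FPKM, Hsd11b1 at 48.9 FPKM and Plin4 at 1.22 FPKM in that library. Each of these exceeded the highest Ct library, at 24.7, 48.8, 10.4 and 1.16 FPKM. In the same library 3 members were below every Ct library, Fkbp5 at 3.70 FPKM, Nr3c2 at 6.73 FPKM and Zbtb16 at 2.92 FPKM, where the lowest Ct libraries had 8.29, 8.04 and 3.81 FPKM. Among the dTg and Ct libraries compared, 18 groups of members' values were checked for a single library far from the rest. Of these, 0 stood apart by Dixon's criterion, which flags about 1 in 20 groups by chance. The dTgDox libraries were not checked in this way.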

How the results depend on the processing

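Over 31 alternatives (30 for Plin4, which a stricter filter removes), Nr3c2, Fkbp5 and Cdkn1a passed in all, for dTgDox against dTg and against Ct. With dTg replicate 1 in the fit, 1537 genes and 4 members passed against dTg and 1504 genes against Ct, where the fit on 15 libraries gave 3596, 7 and 3758. The replicate block gave 1562 genes and 3 members against dTg and 2394 genes against Ct; against dTg the calls of Nr3c1 (adjusted p 0.221), Zbtb16 (0.125), Hsd11b1 (0.059) and Plin4 (0.070) were lost with it, and against Ct those of Zbtb16 (0.062) and Plin4 (0.144). Same-numbered libraries had correlated deviations of -0.188 to 0.080, so the numbers do not pair the libraries. Leaving out 1 library gave 2077 to 3715 genes and 4 to 7 members against dTg (2077 without dTgDox replicate 1, 2155 without dTgDox replicate 3) and 2229 to 3872 genes against Ct (2229 without dTgDox replicate 1, 2273 without dTgDox replicate 3). Ct replicates 4 to 6 and dTg replicates 3 to 7, whose header numbers form a series, were also fitted with dTgDox. The dTgDox header numbers lie outside that series. This setting, called the header series, gave 2282 genes for dTgDox against Ct. For dTg against Ct, 1 gene passed with a pseudocount of 0.1, with dTg replicates 5 to 7 averaged, and without dTg replicate 3 or 6 (0 to 1 when 1 library was left out), and 2 without the 5 libraries rich in olfactory bulb genes. That last setting, chosen after seeing the data, turned the sign of Nr3c1 (-0.034), Tsc22d3 (0.023) and Cdkn1a (0.217) for dTg against Ct and of Sgk1 (-0.072) for dTgDox against Ct, and Zbtb16 against dTg and Plin4 against Ct no longer passed (adjusted p 0.128 and 0.103). Other uncalled signs that turned for dTg against Ct were those of Tsc22d3 with dTg replicate 1 (0.041) or with replicates averaged (0.025), Cdkn1a with the block (0.078) or the header series (0.150), and Plin4 with the header series (0.055). Leaving out 1 library gave -0.00079 to 0.069 for Nr3c1 and -0.319 to 0.018 for Cdkn1a. By Spearman's rho, 0 marker-list relations passed, against 1 by Pearson's r. Fkbp5 with Sgk1 had r = 0.237 without the 2 farthest libraries. Fkbp5 with Tsc22d3 had r = 0.142 without the 2 farthest libraries and 0.006 over 15 libraries. The cause of these changes was not tested. Under other scalings the median over all genes moved by less than 0.1. Precision was set by 3 dTgDox libraries and each gene's spread, with an SE on the log2 scale of 0.26 for Sgk1 and 0.07 for Nr3c1 against dTg.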
